A study of Mus musculus with 14 samples.

Results

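The 45 immediate early and stress-response genes described here were taken by name from the 35271 genes of the deposited table, and all 45 were found there under 1 Ensembl identifier each. They comprise the AP-1 subunits, the Egr, Nr4a1 and Myc regulators, 5 Krüppel-like factors, 5 further basic leucine zipper genes, the Ier genes, 4 dual specificity phosphatases, the Zfp36 family, regulators of NF-κB and cytokine signalling, growth arrest genes, and Mcl1 with Ppp1r15a. Their values were read in 14 single cells labelled as mesangial cells, from 1 wild-type mouse of 8 weeks. Mesangial cells are the pericyte-like cells that hold the capillary loops of the kidney glomerulus together. The mouse was male and C57BL/6 according to the design text, and the strain label of the cells reads C56BL/6. Glomeruli were collected with magnetic beads and dissociated with enzymes, and single cells were captured and lysed in a Fluidigm C1 instrument. All cells form 1 group without an undissociated control, so no groups were compared and no test was made, and cells of 1 mouse are not replicates of a condition.

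Immediate early genes are transcribed within minutes of a stimulus, without new protein synthesis, by factors that are already present, chiefly SRF with its ELK partners, CREB and NF-κB. Many of them encode transcription factors, such as Fos, Jun and Egr1, that switch on later genes, whereas others, such as the Dusp phosphatases, Zfp36 and Nfkbia, end the response. Their mRNAs are typically short-lived. Enzymatic dissociation of tissue is widely known to induce them, which is why they are read as a sign of handling in single-cell data.

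The unit is RPKM, a read count scaled to the length of the gene and to the reads of the cell, so that levels can be set side by side between genes. The read totals recovered from the steps of the values ran from 6.60 M to 23.8 M reads per cell (M, mega), and 3 reads on a transcript of 1 kb equalled an RPKM of 0.126 to 0.455. An RPKM of 1 or more is called detected here, and one of 10 or more is called high. Markers of the labelled type were present in every cell, since 6 to 8 of 8 mesangial markers, among them Gata3 and Serpine2, were high. Of 13 endothelial markers 10 were high in GL_M_30, against 0 to 5 in the other cells, with a summed RPKM of 8.34 to 4128 over the 14 cells. Of 12 podocyte markers 6 were high in GL_M_55, against 0 to 2 elsewhere, with sums of 0.973 to 2189, and Clic3 was listed at 0 throughout. None of 8 tubule markers was detected in any of the 14 cells, and of 14 leukocyte markers only Fcer1g, in GL_M_85, was high. Protein-coding genes at 10 or more numbered 1198 to 3173 per cell, highest in GL_M_36 and GL_M_47.

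Of the 45 members 12 were high in at least 4 cells, 12 in 1 to 3 cells and 21 in none, and sequence features of members that were high in many cells and of members that were high in none are shown first. AU-rich elements in the 3-prime UTR are bound by the Zfp36 proteins, which recruit deadenylases and shorten the life of the mRNA. The nonamer TTATTTATT, their core binding sequence written as DNA, was present in the 3-prime UTR of 11 of 45 members (24.4%), against 7.61% of 20540 protein-coding genes with an annotated 3-prime UTR. The 3-prime UTRs of the members had a median length of 1186 bases, against 943 bases, and held 2.47 AUUUA pentamers per kb, against 1.93 in all these genes. The gap was smaller by this shorter motif, since 5 or more pentamers were found in 26.7% of members, against 21.3% of all these genes. Among the 12 members that were high in at least 4 cells 5 had the nonamer (41.7%), and among the other 33 members 6 had it (18.2%). The first nonamer of the 5 highly expressed carriers and of 3 carriers that stayed below 10 in every cell is shown in 30 bases of the GENCODE M21 transcript, 5′ to 3′, with the nonamer in capitals.
Nfkbia: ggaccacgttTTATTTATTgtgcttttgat
Dusp1: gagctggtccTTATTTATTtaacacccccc
Zfp36: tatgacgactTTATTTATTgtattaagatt
Zfp36l1: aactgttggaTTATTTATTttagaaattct
Zfp36l2: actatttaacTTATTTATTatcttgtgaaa
Fos: tgttttcaatTTATTTATTaagatggattc
Maff: ttccacactcTTATTTATTgcacgaatcta
Rel: ctcccagactTTATTTATTttttttagctt
Nfkbia, Dusp1, Zfp36, Zfp36l1 and Zfp36l2 were each high in 4 to 9 cells, while Fos, Maff and Rel, with the same 9 bases, were high in none of the 14. The nonamer was also found in Fosl2 and Cebpd, high in 1 cell each, and in Ppp1r15a, high in none.

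Promoter windows from 250 bases before to 50 bases after the annotated start were available from RefSeq on GRCm38.p6 for 36 of the 45 members, in 48 windows. They were searched on both strands for the cyclic AMP response element CRE (TGACGTCA), the AP-1 site TGANTCA, the CArG box bound by SRF, the κB site bound by NF-κB, and TATAAA. The CRE and the AP-1 site do not contain each other. The κB site was found in 11 of 36 member genes (30.6%), against 9.55% of 27025 genes in the table of promoters. The CRE was found in 4 members (11.1%), against 2.03%, and the CArG box in 3 members, Dusp5, Egr2 and Zfp36 (8.33%), against 1.81%. TATAAA was found in 10 members (27.8%), against 15.7%, and the AP-1 site in 2 (5.56%), against 8.97%. The windows of Fos and of 3 members that limit the response are given 5′ to 3′ on the strand of the gene, with every match of these motifs in capitals.
Fos, chr12:85473640-85473939, plus strand: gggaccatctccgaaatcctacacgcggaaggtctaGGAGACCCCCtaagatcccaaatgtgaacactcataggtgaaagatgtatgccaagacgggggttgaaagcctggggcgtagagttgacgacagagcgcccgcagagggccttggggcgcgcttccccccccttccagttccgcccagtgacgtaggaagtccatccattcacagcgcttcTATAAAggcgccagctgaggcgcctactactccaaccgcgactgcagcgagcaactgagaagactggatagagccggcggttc
Dusp1, chr17:26508423-26508722, minus strand: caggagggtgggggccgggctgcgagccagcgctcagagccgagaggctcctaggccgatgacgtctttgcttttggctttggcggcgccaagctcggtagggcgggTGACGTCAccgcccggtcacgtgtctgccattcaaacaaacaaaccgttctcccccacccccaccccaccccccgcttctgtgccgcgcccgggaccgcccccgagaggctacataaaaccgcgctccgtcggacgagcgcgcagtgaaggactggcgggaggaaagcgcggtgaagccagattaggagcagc
Zfp36, chr7:28379179-28379478, minus strand: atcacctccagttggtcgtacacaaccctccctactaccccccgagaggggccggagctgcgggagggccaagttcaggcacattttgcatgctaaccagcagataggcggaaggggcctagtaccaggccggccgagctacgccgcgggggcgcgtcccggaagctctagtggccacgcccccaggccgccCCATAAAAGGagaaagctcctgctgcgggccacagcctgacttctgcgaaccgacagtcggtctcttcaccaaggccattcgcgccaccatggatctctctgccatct
Nfkbia, chr12:55492598-55492897, minus strand: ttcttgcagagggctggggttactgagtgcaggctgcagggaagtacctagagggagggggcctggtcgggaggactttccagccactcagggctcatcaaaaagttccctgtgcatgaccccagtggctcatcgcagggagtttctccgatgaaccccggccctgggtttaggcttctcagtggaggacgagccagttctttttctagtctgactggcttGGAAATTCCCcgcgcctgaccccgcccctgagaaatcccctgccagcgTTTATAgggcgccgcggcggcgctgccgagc
In Fos the capitals mark a κB match that begins 214 bases before the start and TATAAA at 33 bases, in a gene that reached an RPKM of only 7.70. Dusp1 has the CRE at 143 bases before the start, Zfp36 a CArG box at 58 bases and Nfkbia a κB match at 29 bases, and these genes were high in 5, 4 and 9 cells. Many other carriers were low. With the CRE, Maff and Ppp1r15a reached 0.237 and 0.0377 at most, while Btg2 was high in 3 cells. With the CArG box, Egr2 was listed at 0 throughout and Dusp5 was high in 1 cell. With the κB site, Egr2, Fos, Fosb, Ier3, Maff, Nr4a1, Rel and Tsc22d1 were high in none, Fosl2 in 1 and Tsc22d3 in 7. The second run of capitals in Nfkbia is TATAAA read on the opposite strand, 19 bases after the start. The matches describe the letters of these windows and are not evidence of binding in these cells. Bases more than 250 before the start were not searched, so a motif missing from a window, as the CArG box in Fos, may lie further upstream.

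Over all members, 28 of 45 (62.2%) were detected in at least 1 cell, against 41.8% of 21396 protein-coding genes, and 24 (53.3%) were high in at least 1 cell, against 33.9%. Listed at 0 in every cell were 5 members, Fosb, Fosl1, Egr2, Dusp2 and Rel (11.1%, against 44.3%). None of the 45 was detected in all 14 cells, a state that 0.701% of protein-coding genes reached. High levels in at least 4 cells were seen for 12 members (26.7%), against 11.3% of protein-coding genes, and in at least 8 cells for 3 members, Btg1, Nfkbia and Zfp36l1 (6.67%, against 3.74%). In exactly 1 cell 8 members were high (17.8%, against 11.7%). Of the 630 values of members in cells 95 were at 10 or more (15.1%, against 8.21% of all protein-coding values) and 31 lay between 1 and 10 (4.92%, against 4.26%). A further 115 were above 0 but below 1 (18.3%, against 12.4%), and 389 were listed at 0 (61.7%, against 75.1%). Values between 1 and 10 were thus few both among the members and among all protein-coding genes. The median of the 95 high values was an RPKM of 104.8, beside 109.8 for all protein-coding genes. The median over members of the mean log2(RPKM + 1) was 0.35, against 0.01 over protein-coding genes.

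**Figure D1:**
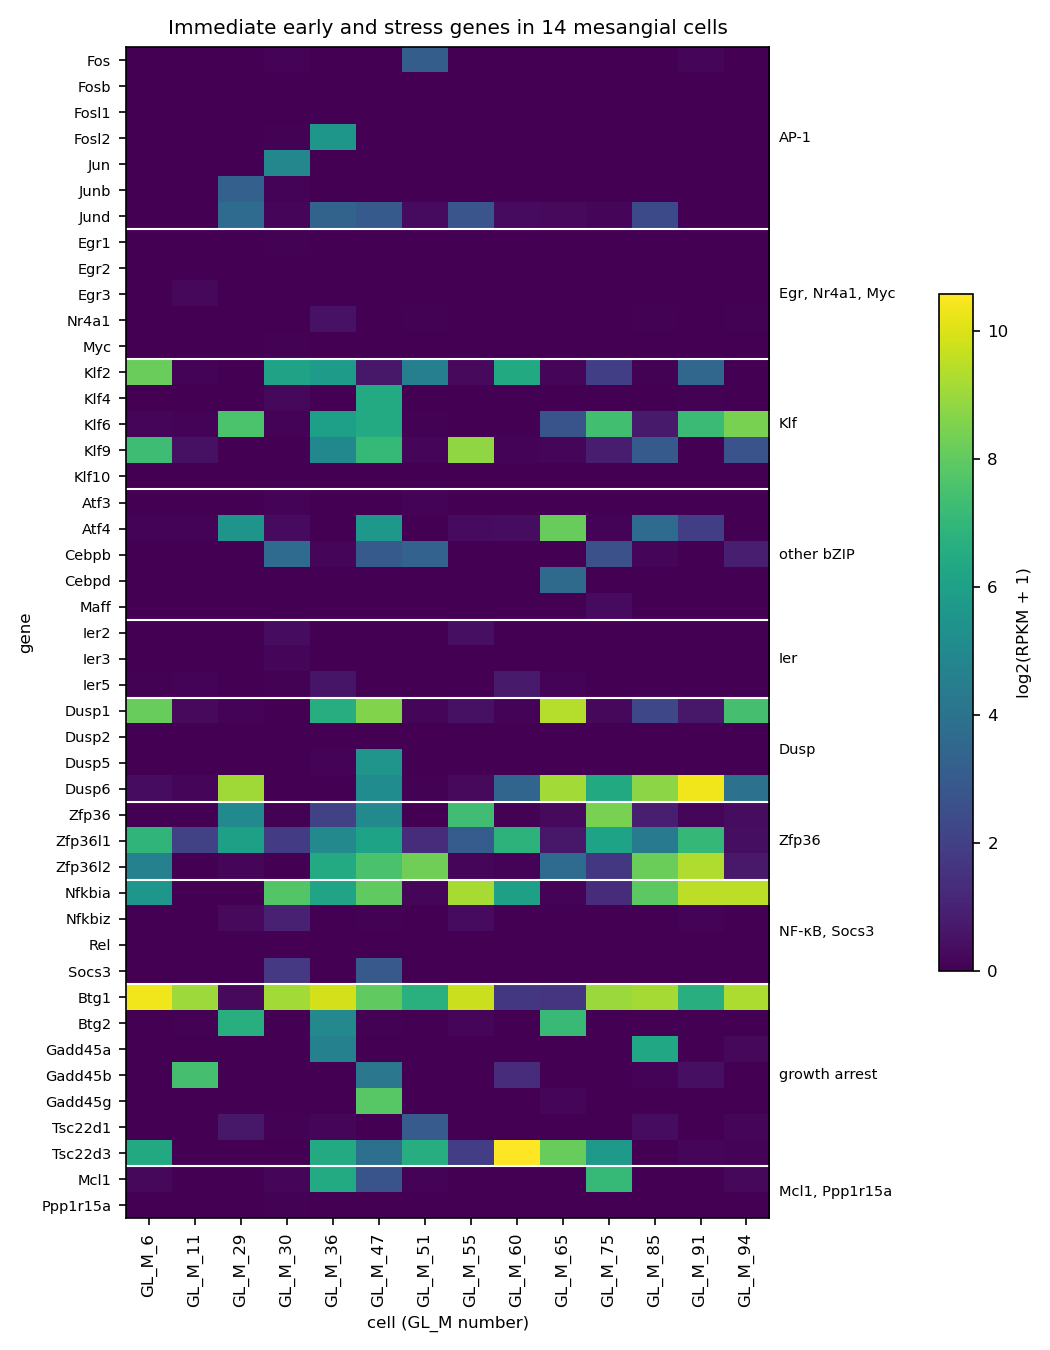
Level of each of the 45 genes, in rows grouped by role, in each of the 14 cells, in columns, as log2(RPKM + 1) on a colour scale from dark (0) to yellow. The AP-1, Egr and Ier rows are almost entirely dark, and bright values of the Klf, Dusp, Zfp36, Nfkbia, Btg1 and Tsc22d3 rows are spread over different cells.

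The AP-1, Egr, Nr4a1, Myc and Ier genes had few high values. The 7 AP-1 genes, 5 Egr, Nr4a1 and Myc genes and 3 Ier genes gave 3 high values among 210 (1.43%), against 21.9% for the other 30 members and 8.21% for all protein-coding genes, a grouping chosen with the values known. Of these 15 genes 10 stayed below an RPKM of 1 in all cells, as did 7 of the other 30 members and 58.2% of protein-coding genes, so that this count by itself is close to the background. The 3 high values belonged to 3 genes in 3 different cells, and 11.7% of protein-coding genes were likewise high in exactly 1 cell.

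Among the AP-1 subunits, Fos was at an RPKM of 7.70 in GL_M_51, at 0.0719 in GL_M_30 and at 0.103 in GL_M_91, and was listed at 0 in the other 11 cells. Jun, the usual partner of Fos, was at 28.5 in GL_M_30 and listed at 0 in the other 13. Fosl2, a Fos-related subunit, was at 47 in GL_M_36 and at most 0.0537 elsewhere. Each of these subunits thus had 1 cell far above the rest, and not the same cell. Of all protein-coding genes 11.7% were high in exactly 1 cell, and 75.1% of protein-coding values were listed at 0. A single cell far above the rest is therefore not particular to these subunits, and the lack of a common cell was not tested. Junb, often an antagonist of Jun, was at 8.41 in GL_M_29, with 0.0854 in GL_M_30 and 0 in the rest. Jund, the AP-1 subunit that many resting cells carry, was the most widespread of the family, with a lowest value of 0, a median of 0.219 and a highest of 11.9 in GL_M_29, and with 4.17 to 9.30 in GL_M_36, GL_M_47, GL_M_55 and GL_M_85. Fosb and Fosl1 were listed at 0 in all 14 cells. The exons of Fosl1 overlap the opposite-strand gene Ccdc85b over 57.2% of their length and those of Jund overlap the antisense gene Gm11175 over 52.6%. Shorter overlaps exist for Junb with Prdx2, over 7.52%, and for Jun with Junos, over 7.28%. The sources used here do not give the strand setting of the counting, so reads of such pairs cannot be told apart and these levels are uncertain.

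The zinc finger factors Egr1, Egr2 and Egr3, the orphan nuclear receptor Nr4a1 and the growth regulator Myc were below 1 in every cell. Egr1 was above 0 in 2 cells, with a highest RPKM of 0.0418 in GL_M_30, and Egr2 was listed at 0 in all 14. Egr3 reached 0.176 in GL_M_11, Nr4a1 0.422 in GL_M_36 and Myc 0.0443 in GL_M_30. Ier2, Ier3 and Ier5, small response proteins, reached 0.346, 0.139 and 0.679 at most. Thus these 8 genes, commonly used to recognise activated cells, gave no value of 1 or more in any of the 14 cells. Of all protein-coding genes 58.2% likewise stayed below 1 in every cell, and 75.1% of protein-coding values were listed at 0. Whether a transcript listed at or near 0 was absent from the cell or was not captured was not tested.

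Krüppel-like factors, zinc finger proteins of which Klf2, Klf4 and Klf6 respond to growth factors or shear stress, were high in part of the cells. Klf6 had a lowest RPKM of 0, a median of 3.25 and a highest of 349.8 in GL_M_94, and was high in 6 cells, where it spanned 61.7 to 349.8. Its highest value outside these cells was 5.80. Klf2, a factor of quiescent endothelium, had a lowest of 0, a median of 1.78 and a highest of 284.8 in GL_M_6, and was also high in 6 cells, of which GL_M_30 was at 67.6. The 6 cells with high Klf2 and the 6 with high Klf6 had 2 cells in common, GL_M_36 and GL_M_91, which is 33.3% of each set. Klf9, a target of the glucocorticoid receptor, ranged from 0 to 449.8 in GL_M_55, with a median of 0.585 and 4 high cells. Klf4 was at 86.4 in GL_M_47 and at most 0.160 elsewhere, and Klf10, a TGF-beta induced factor, reached 0.0258. The family thus supplied 17 high values in 11 cells from 4 of its 5 genes.

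Of the other basic leucine zipper genes, Atf4, the translationally controlled factor of the integrated stress response, was high in 4 cells. Its lowest RPKM was 0, its median 0.229 and its highest 278.3 in GL_M_65, with 48.9 in GL_M_47, 44.0 in GL_M_29 and 12.2 in GL_M_85. Cebpb, an acute phase factor, was at 11.9 in GL_M_30, with 5.24 to 8.98 in GL_M_47, GL_M_51 and GL_M_75 and 0 as its lowest value. Cebpd, its relative, was at 11.5 in GL_M_65 and listed at 0 in the other 13 cells. The exons of Cebpb and Cebpd overlap the opposite-strand genes Tmem189 and Spidr over 20.7% and 15.0% of their length. Spidr reached 170.4, and the levels of both members are uncertain for this reason. Atf3 and Maff stayed below 1, with highest values of 0.0840 and 0.237. The 6 high values of this group fell in 5 cells, and GL_M_65 held both Atf4 and Cebpd.

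The dual specificity phosphatases remove phosphate from MAP kinases and so limit the signal that induces immediate early genes. Dusp6, which acts on ERK in the cytoplasm, had a lowest RPKM of 0, a median of 12.25 and a highest of 1321 in GL_M_91, the second highest level of any member. It was high in 7 cells and spanned 90-fold among them, with 14.7 in GL_M_94 as the lowest. Dusp1, the nuclear phosphatase that acts on p38 and JNK, had a lowest of 0, a median of 0.488 and a highest of 672.9 in GL_M_65. It was high in 5 cells, all at 94.3 or above, and at most at 3.87 in the other 9. Dusp1 and Dusp6 were both high in 3 cells, GL_M_47, GL_M_65 and GL_M_94, which is 60% of the Dusp1 cells and 42.9% of the Dusp6 cells. Dusp5, a nuclear ERK phosphatase, was at 45.2 in GL_M_47 and at most at 0.0603 elsewhere, and Dusp2 was listed at 0 in all 14 cells. The exons of Dusp5 overlap an antisense gene over 22.1% of their length.

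The Zfp36 family, the proteins that bind AU-rich elements, was the group in which all members were high in at least 4 cells, with 19 high values among 42. Zfp36l1 was above 0 in every cell, with a mean log2(RPKM + 1) of 4.14 ± 2.48 (SD, n = 14 cells of 1 mouse). Its RPKM had a lowest value of 0.318 in GL_M_94, a median of 25.55 and a highest of 130.5 in GL_M_91, the lowest maximum of the 12 widespread members. The exons of Zfp36l1 overlap the opposite-strand noncoding gene Gm26669 over 55.9% of their length, and that gene was listed at 0 in all 14 cells. The exons of Zfp36l1 share 56.9% of their 50-base stretches with Gm26669 or the pseudogene Zfp36l1-ps, so its level is uncertain too. Zfp36l2 ranged from 0 to 643.2 in GL_M_91, with a median of 7.14, and was high in 7 cells. Zfp36, tristetraprolin, ranged from 0 to 347.9 in GL_M_75, with a median of 0.243, and was high in GL_M_29, GL_M_47, GL_M_55 and GL_M_75. Zfp36 and Zfp36l2 shared 1 high cell, GL_M_47, while Zfp36l1 and Zfp36l2 shared 5, which is 62.5% of the Zfp36l1 cells and 71.4% of the Zfp36l2 cells.

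Nfkbia, the inhibitor IκBα that NF-κB itself induces, was high in more cells than any other member except Btg1. Its RPKM had a lowest value of 0, a median of 67.4 and a highest of 737.3 in GL_M_91, with 734.9 in GL_M_94 close below. It was high in 9 cells, all at 46.3 or above, and at most at 1.54 in the other 5, so that no cell lay between these levels. The other members of this group were low. Socs3, an inhibitor of cytokine receptor signalling, was at 6.85 in GL_M_47 and 2.36 in GL_M_30, the atypical inhibitor Nfkbiz reached 0.949 in GL_M_30, and Rel, an NF-κB subunit of lymphoid cells, was listed at 0 in all 14.

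Btg1, an antiproliferative protein that also binds deadenylases, had the highest mean of the 45 genes and was high in 11 cells. Its mean log2(RPKM + 1) was 7.18 ± 3.43 (SD, n = 14 cells of 1 mouse). The RPKM had a lowest value of 0.216 in GL_M_29, a median of 512.8 and a highest of 1306 in GL_M_6. The 3 cells without high Btg1, GL_M_29, GL_M_60 and GL_M_65, were at 2.30 or below. Btg2, its relative and a target of p53, was at 139.6 in GL_M_65, 102.5 in GL_M_29 and 30.7 in GL_M_36, and at most at 0.144 in the other 11 cells. Among the 3 cells with low Btg1, GL_M_29 and GL_M_65 were thus the cells with the most Btg2.

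Tsc22d3, the glucocorticoid-induced leucine zipper GILZ, had the highest single value of all members, an RPKM of 1528 in GL_M_60. Its lowest value was 0 and its median 8.49, and it was high in 7 cells, where it spanned 108-fold from 14.1 in GL_M_47. Its relative Tsc22d1, a TGF-beta stimulated gene, reached 7.16 in GL_M_51. The growth arrest and DNA damage genes were each high in 1 or 2 cells. Gadd45b was at 174.7 in GL_M_11 and 17.4 in GL_M_47, Gadd45a at 77.0 in GL_M_85 and 23.8 in GL_M_36, and Gadd45g at 226.2 in GL_M_47 alone. The exons of Gadd45a overlap the opposite-strand gene E230016M11Rik over 19.1% of their length. That gene reached 5.17, and the level of Gadd45a is uncertain for this reason. In GL_M_11 Gadd45b and Btg1 were the only high members of the 45.

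Mcl1, a short-lived survival protein of the BCL2 family, was at 135.5 in GL_M_75, 86.9 in GL_M_36 and 5.70 in GL_M_47, and at most at 0.180 elsewhere. Ppp1r15a, the phosphatase subunit that reverses the block to translation in the integrated stress response, reached 0.0377 in GL_M_30.

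**Figure D2:**
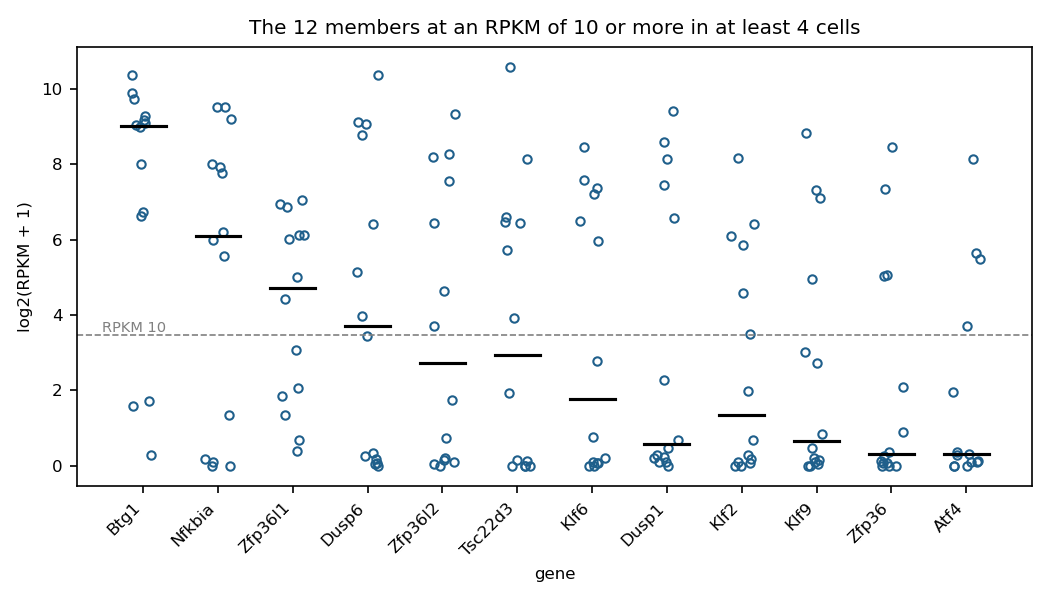
Level of the 12 genes at an RPKM of 10 or more in at least 4 cells, ordered by mean, as log2(RPKM + 1) on the vertical axis; each point is 1 cell, the bar is the median of 14 cells and the dashed line an RPKM of 10. Btg1 and Nfkbia separate into a high and a low set of cells, with 11 and 9 cells above the line.

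On GRCm38, the assembly that mm10 denotes, Btg1 (ENSMUSG00000036478) lies on chromosome 10 from 96617006 to 96622809, plus strand, and Nfkbia (ENSMUSG00000021025) on chromosome 12 from 55489410 to 55492647, minus strand. Zfp36l1 (ENSMUSG00000021127) lies on chromosome 12 from 80107754 to 80113013, minus, Dusp6 (ENSMUSG00000019960) on chromosome 10 from 99263231 to 99267489, plus, and Tsc22d3 (ENSMUSG00000031431) on chromosome X from 140539528 to 140600659, minus. Klf6 (ENSMUSG00000000078) lies on chromosome 13 from 5861482 to 5870394, plus, and Dusp1 (ENSMUSG00000024190) on chromosome 17 from 26505590 to 26562128, minus. Each of these 7 genes is protein-coding, and a value is the sum over the whole gene.

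The number of high members per cell ranged from 2 in GL_M_11 to 15 in GL_M_47, with a median of 7. GL_M_47 and GL_M_36, with 15 and 13 high members, were also the cells with the most high protein-coding genes of any kind, 2947 and 3173. As a share, 33.3% of the members and 13.8% of protein-coding genes were high in GL_M_47, and 28.9% and 14.8% in GL_M_36. In 13 of the 14 cells the share of members exceeded that of protein-coding genes, and in GL_M_11 it was lower, at 4.44% against 7.78%. Per 1000 high protein-coding genes, high members numbered 1.20 in GL_M_11 and 2.59 in GL_M_30 at the low end, and 5.09 in GL_M_47 and 5.73 in GL_M_91 at the high end. Without GL_M_36 and GL_M_47, a choice made after seeing the data, 20 members were high in some cell and 8 in at least 4 cells.

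The summed RPKM of the 45 genes ran from 559 in GL_M_51 to 3090 in GL_M_91, with a median of 1738, and made up 0.0978% to 0.524% of a cell's RPKM total. A few genes carried these sums, since the highest member of a cell took 20.1% to 84.6% of it. That member was Btg1 in 7 cells, Dusp1 in GL_M_47 and GL_M_65, Dusp6 in GL_M_29 and GL_M_91, and Tsc22d3, Zfp36l2 and Nfkbia in 1 cell each. GL_M_30, with the most endothelial markers, had 5 high members, and GL_M_55, with the most podocyte markers, had 4. Without these cells, likewise a choice made after seeing the data, 22 members were high in some cell and 10 in at least 4 cells, and the part of the other cell types' transcripts in single values of these cells was not tested.

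**Figure D3:**
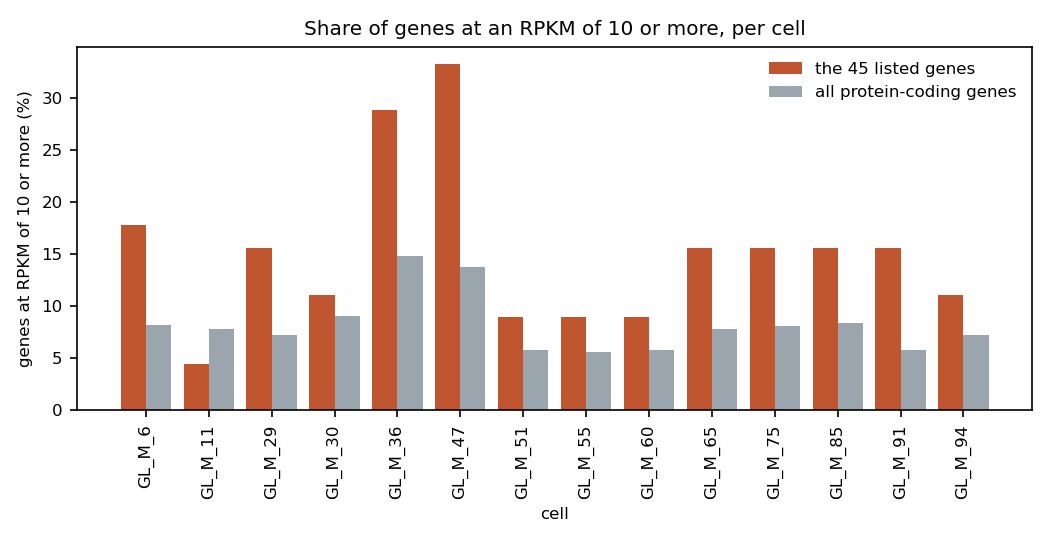
Percentage of genes at an RPKM of 10 or more in each of the 14 cells, for the 45 listed genes (orange, left) and for all protein-coding genes (grey, right). The orange bar is the higher in every cell except GL_M_11, and both are highest in GL_M_36 and GL_M_47.

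Among the 12 members that were high in at least 4 cells, the 66 pairs shared 0 to 8 high cells, with a median of 3. Nfkbia and Btg1 shared 8, which is 88.9% of the Nfkbia cells and 72.7% of the Btg1 cells, and both are high in most cells. Klf6 and Dusp6 shared 5 cells, GL_M_29, GL_M_47, GL_M_75, GL_M_91 and GL_M_94, which is 83.3% of the Klf6 cells and 71.4% of the Dusp6 cells. Klf2, high in 6 cells, shared 0 high cells with Atf4 and with Zfp36, which were high in 4 cells each. The overlap of other protein-coding genes that are high in as many cells was not computed, for these pairs or for those given above. With 14 cells and pairs picked from their counts, these overlaps are a description only.

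Reads per member are estimates, since 27.8% of the member values that came to 0.5 to 50 reads lay within 0.05 of a whole read with the exon lengths used. The 115 member values above 0 and below 1 corresponded to a median of about 4.06 reads, and 54 of them (47%) to 3 reads or fewer. Of these values 77 belonged to members that were high in another cell, and their median was 0.0420% of the level in the highest cell. The smallest value at 10 or more rested on about 184 reads.

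The number of cells with a high level differed with the GC content of the transcript. The longest coding transcript had a median GC content of 51% in the 12 members high in at least 4 cells, of 55% in the 12 members high in 1 to 3 cells and of 55.7% in the 21 members below 10 in every cell, beside 49.1% over 21353 protein-coding genes. Among protein-coding genes the share that was high in at least 4 cells rose from 8.45% at a GC content below 40% to 15.5% at 40 to 45%. It then fell to 13.8% at 45 to 50%, 11.1% at 50 to 55%, 7.0% at 55 to 60% and 4.10% at 60% or more. Of the 18 members at 55% or more 1 was high in at least 4 cells, Klf2, whose transcript has 61.6% GC. This count is close to the 7.0% and 4.10% of protein-coding genes at these GC contents. Of the 7 members with 1 exon, Jun, Junb, Jund, Cebpb, Cebpd, Ier2 and Ier5, 0 were high in at least 4 cells and 4 in some cell, against 2.55% and 9.38% of 1375 protein-coding genes with 1 exon. Of the 32 members with 2 to 4 exons 11 were high in at least 4 cells and 18 in some cell, against 8.16% and 21.7% of protein-coding genes with as many exons. The part of GC content and exon number in the low values was not tested.

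**Figure D4:**
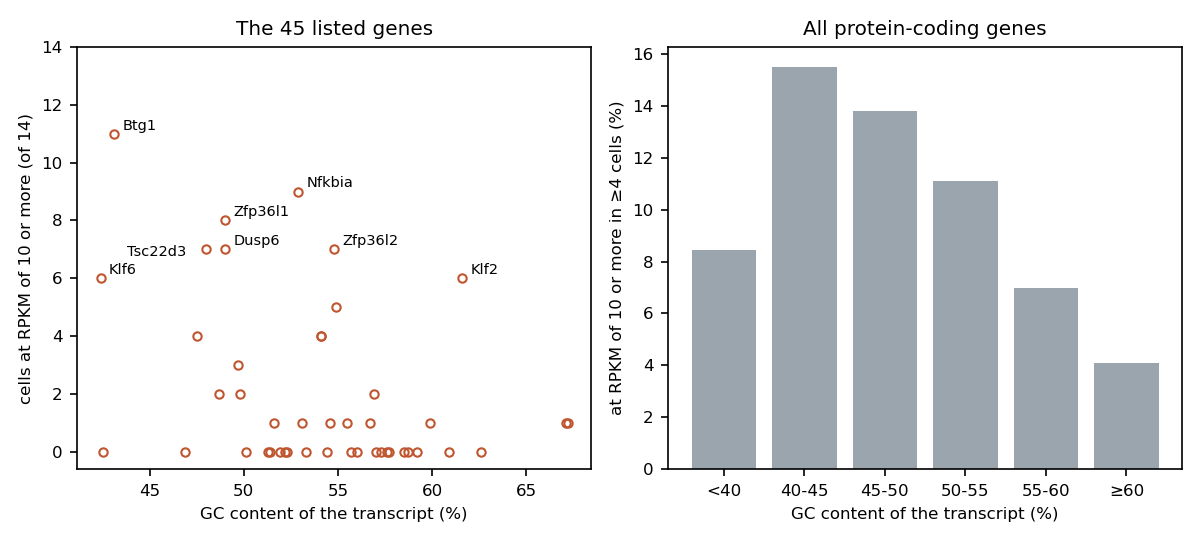
Left, number of the 14 cells in which each of the 45 listed genes was at an RPKM of 10 or more, against the GC content of its longest coding transcript; right, percentage of all protein-coding genes at 10 or more in at least 4 cells, by GC content. The bars are highest at 40 to 45% GC, with 15.5%, and lowest at 60% or more, with 4.10%, and most listed genes above 55% GC lie at 0 or 1 cell.

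Lists of genes that act around the members differed in how many of their genes were high. Of 30 further genes, listed here as immediate early, 8 were high in at least 4 cells (26.7%, against 11.3% of protein-coding genes) and 6 were listed at 0 in all 14. Whether each of the 30 responds as an immediate early gene in mesangial cells was not tested. The 4 with the highest means were Maf, a basic leucine zipper factor, with a mean log2(RPKM + 1) of 8.65 ± 1.98, Id3, an inhibitor of helix-loop-helix factors, with 8.30 ± 3.27, Sgk1, the serum and glucocorticoid induced kinase, with 7.63 ± 2.92, and Spry2, a feedback inhibitor of receptor tyrosine kinases, with 7.36 ± 1.97 (SD, n = 14 cells of 1 mouse). Sgk1 was above 0 in all 14 cells, from an RPKM of 4.0 in GL_M_75 to 3157 in GL_M_91. Maf, Sgk1 and Spry2 were thus high in 13 cells each and Id3 in 12, more than any of the 45 members.

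Of 31 listed MAP kinase pathway, SRF, ELK and CREB genes 29 names were in the table, since Mkl1 and Mkl2 are older names of Mrtfa and Mrtfb. Of these 29, 10 were high in at least 4 cells (34.5%), led by the coactivator Crebbp in 10 cells, with a median RPKM of 148.6, the kinase Braf in 7, Atf2 in 8 and Nras in 7. Srf itself, the factor that binds the CArG box, was listed at 0 in all 14 cells. Of 10 NF-κB core genes 1 was high in at least 4 cells, the kinase Ikbkb, in 5 cells and up to 549 in GL_M_29. Ikbkg reached 133 in GL_M_94, Chuk 951 in GL_M_65 and the subunit Rela 370.3 in GL_M_11.

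Of 16 genes of mRNA decay and AU-rich element binding 9 were high in at least 4 cells (56.2%), the largest share of these 6 lists. Khsrp, a protein that promotes decay, was high in 12 cells with a median of 45.3, and Tial1, Tia1 and the exonuclease Xrn1 in 8 cells each. Of 12 genes of the integrated and unfolded protein stress responses 1 was high in at least 4 cells (8.33%, against 11.3% of protein-coding genes). It was the chaperone Hspa5, high in 10 cells and up to 1414 in GL_M_65, which was also the cell with the highest Atf4. Xbp1 was high in 3 cells, Eif2s1 in 3 and Eif2ak2 in 2. Ddit3 was high in 2 cells, up to 107.3 in GL_M_85, and Asns reached 0.1595. Trib3, Chac1 and Sesn2, targets of Atf4 or of p53, were listed at 0 in all 14. Of 6 glucocorticoid genes, Nr3c1, the receptor, was high in 8 cells with a median of 17.8 and Sgk1 in 13, while Fkbp5 was high only in GL_M_47 and Per1 in none. Sgk1 and Per1 stand in both this list and that of further immediate early genes.

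**Figure D5:**
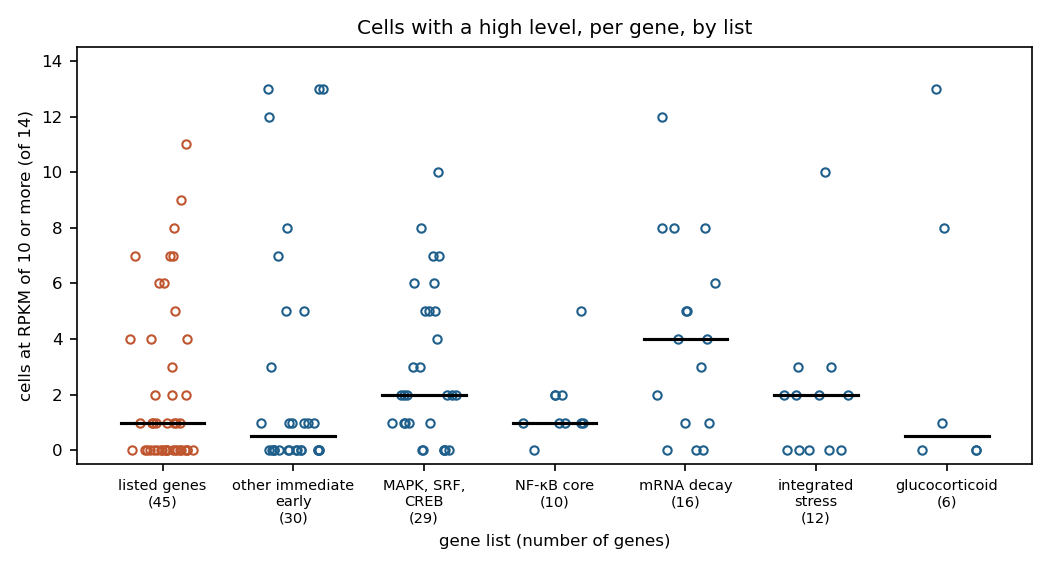
Number of the 14 cells in which each gene was at an RPKM of 10 or more, by list, with 1 point per gene and a bar at the median of the list; the 45 listed genes (orange) stand left of the 6 lists of related genes (blue). The median was 1 cell for the 45 genes and 4 cells for the mRNA decay genes, and every list holds genes at 0 cells.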

How the data were processed

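The authors deposited 1 table of RPKM values, with 14 columns that each match a cell title. Per the submitters' processing notes, TopHat2 2.0.12 and HTSeq 0.6.1 were used with mm10. The sources used here do not give the annotation release, the strand setting, the handling of multi-mapped reads or a cell filter. Of 35271 identifiers 34488 matched GENCODE M21, which supplied symbols, exons and transcripts. Read totals were recovered from the smallest steps of the RPKM of genes with 1 transcript, where 85.0% to 89.8% of values below 50 reads came within 0.02 of whole reads, and the procedure was tested on simulated data. For genes with several transcripts the authors' gene length is unknown, so reads per gene are estimates with the M21 exon length. Floors cover counting error only, since molecular identifiers are not mentioned.

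No test was made, as all cells come from 1 mouse. Means on the log2(RPKM + 1) scale are given only for genes above 0 in all cells. Members were named by their number of cells at 10 or more, and from the other lists the 4 genes with the highest means. Members and lists were chosen with earlier results of these data known. Python 3.11.15, pandas 2.3.3 and matplotlib 3.10.9 were used.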

Additional observations from a re-analysis of the deposited data

How the results depend on the processing

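Of 54 recomputed values under other limits, scalings or sets of cells, 5 moved by more than 1.5 times or by more than the spread between cells. The share of members with the nonamer was instead held against the exact 95% binomial interval of its main value. Its alternative, 5 or more AUUUA pentamers, gave 26.7% of members, but the share over all protein-coding genes was then 21.3% instead of 7.61%. Counting any value above 0 instead of an RPKM of 1 gave 2 members, Zfp36l1 and Btg1, in every cell, where the main count was 0. With limits of 5 and 1 in place of 10, chosen after seeing the data, the AP-1, Egr, Nr4a1, Myc and Ier genes gave 8 and 9 values past the limit instead of 3. A pseudocount of 0.1 placed the median over members of the mean level at -2.63 instead of 0.35, because most values are 0. Without Btg1 the median summed RPKM of the members was 1047. The other 49 stayed within these bounds. Among them, leaving out 1 cell at a time gave 9 to 12 members at 10 or more in at least 4 cells and a median mean level of 0.26 to 0.38, both lowest without GL_M_47. The limits of 5 and 20 gave 14 and 11 members in at least 4 cells. Read depth bounds only values below about 0.455 RPKM on a transcript of 1 kb, and it does not cover transcripts lost before sequencing. No paired analysis was possible because there is 1 group of cells.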
